A study of Rattus norvegicus with 6 samples.

Results

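Circadian clock genes were examined in the vestibular epithelium of the rat inner ear, where hair cells (HCs) sense balance, with and without exposure to the ototoxic antibiotic streptomycin. The set held 10 genes (Per1, Per2, Per3, Ciart, Nr1d1, Nr1d2, Dbp, Tef, Arntl and Clock), picked by symbol, and each symbol matched 1 of the 32883 genes in the table. RNA was sequenced from 3 Control and 3 STREP Long-Evans rats, 2 males and 1 female in each group, with 1 library per animal made from 2 utricles and 6 cristae pooled together. STREP animals had received streptomycin subcutaneously in PBS at 500 mg/kg daily for 6 weeks from postnatal day 21, Control animals PBS alone, and all were killed on the last treatment day. In the following, animals 1 and 2 of each group are males and animal 3 is the female, and the numbers pair no animals between groups. The animals lived under a light and dark cycle, but the hour of death of each animal is not given in the sources used here, so hour and group cannot be told apart.

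The mammalian clock is a feedback loop of transcription that runs in most tissues, and clock rhythms have been described in the inner ear. Its positive arm is the pair of transcription factors made from Arntl (BMAL1) and Clock, for which Npas2 can stand in. This pair binds E-boxes and drives the Per and Cry genes, Ciart, Nr1d1, Nr1d2, Dbp and Tef. PER and CRY proteins, and CIART, then block the pair, while the nuclear receptors NR1D1 and NR1D2 (REV-ERB alpha and beta) repress Arntl through RORE motifs. DBP and TEF, of the PAR bZIP family, carry rhythms to output genes through D-boxes. In a running clock, Arntl and Npas2 transcripts therefore peak at about the opposite phase to those of Per2, Ciart, Nr1d1 and Dbp.

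To show where these motifs lie, the promoter windows of all 10 genes, 250 bases before to 50 after the annotated gene start, were taken from RefSeq (build GRCr8; Arntl was matched as Bmal1) and searched on both strands. The windows of Ciart, Per2 and Arntl, the genes that differed most between Control animals, and of Dbp, the gene with the smallest adjusted p-value, are printed 5′ to 3′, with motif matches in capitals.
Ciart promoter, chr2:186112197-186112496, minus strand: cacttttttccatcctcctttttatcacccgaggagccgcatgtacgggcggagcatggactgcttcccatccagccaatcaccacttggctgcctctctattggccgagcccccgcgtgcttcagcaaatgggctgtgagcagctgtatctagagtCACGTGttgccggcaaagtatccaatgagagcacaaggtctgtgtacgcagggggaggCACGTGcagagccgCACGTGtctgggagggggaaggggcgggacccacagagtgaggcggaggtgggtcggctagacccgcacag
Per2 promoter, chr9:99496944-99497243, minus strand: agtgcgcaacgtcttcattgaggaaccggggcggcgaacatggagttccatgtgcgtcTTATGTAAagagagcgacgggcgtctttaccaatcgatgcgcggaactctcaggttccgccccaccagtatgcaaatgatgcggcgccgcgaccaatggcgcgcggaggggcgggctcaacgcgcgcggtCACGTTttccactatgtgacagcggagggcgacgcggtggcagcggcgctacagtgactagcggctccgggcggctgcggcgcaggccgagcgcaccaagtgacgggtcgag
Arntl promoter, chr1:176766078-176766377, plus strand: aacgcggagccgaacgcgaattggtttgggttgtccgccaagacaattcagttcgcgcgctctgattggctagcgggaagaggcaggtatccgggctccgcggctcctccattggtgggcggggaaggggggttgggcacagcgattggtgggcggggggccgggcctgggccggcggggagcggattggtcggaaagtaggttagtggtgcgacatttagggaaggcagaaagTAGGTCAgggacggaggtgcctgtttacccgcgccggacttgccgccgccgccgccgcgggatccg
Dbp promoter, chr1:105312006-105312305, plus strand: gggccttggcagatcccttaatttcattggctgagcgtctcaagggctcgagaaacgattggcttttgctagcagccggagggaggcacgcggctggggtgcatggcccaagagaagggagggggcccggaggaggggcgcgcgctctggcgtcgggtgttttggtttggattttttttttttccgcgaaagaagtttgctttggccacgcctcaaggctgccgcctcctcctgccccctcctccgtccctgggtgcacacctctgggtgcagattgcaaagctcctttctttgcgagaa
The Ciart window held the E-box CACGTG at 3 places, with the first base at positions -93, -35 and -21 from the gene start. That of Tef held 1, and E-boxes occurred in 6.42% of all 33469 promoter windows. The Per2 window held the related E'-box CACGTT at position -62 and the D-box TTATGTAA at position -192. The Nr1d1 window held 1 E'-box, read on the other strand. E'-boxes occurred in 4.83% of all windows, and D-boxes (TTATGTAA or TTACGTAA) in 1.01%. In the Arntl window the RORE letters TAGGTCA began at position -16, and TAGGTCA or TGGGTCA occurred in 6.6% of all windows. The windows of Dbp, Nr1d2, Per1, Per3 and Clock held no match to these letters or to the CRE TGACGTCA, which says nothing of sites outside the 300 bases.

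Library totals ran from 29333584 to 59906048 counts and were lower in every STREP than in every Control library. The lowest member value, Ciart in Control animal 3, rested on 313 counts, so every member was well detected, and both calls given below were kept with all libraries thinned to the smallest total. Levels are given as normalised counts, which are counts divided by a size factor per library. They are not scaled to gene length, so they are compared between animals and not between genes. HC markers were present in every library, with summed levels of 77753 to 82806 normalised counts in Control and 65681 to 79378 in STREP animals over 9 genes, 1 of them called lower. These sums hide differences between genes. Of the 9, 8 had a log2 fold change below 0, against 7969 of all 16250 tested genes. Myo7a, Slc17a8, Cib2 and Tmc1 were lower in all STREP than in all Control animals, as were 8.63% of all genes. Calb2 was higher in all STREP animals, as were 9.12% of all genes. In whole tissue, fewer cells of a type and less RNA per cell cannot be told apart.

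After streptomycin, Dbp and Nr1d2 were higher and no other member passed the test. A gene was called when its DESeq2 adjusted p-value, over all genes tested, was under 0.05 and its fold change over 1.5. Of the 10 members, all tested, 2 were called higher and 0 lower, against 3.24% of all 16250 tested genes called, 1.87% called higher and 1.37% lower. At an unadjusted p under 0.05, 2 members passed, both higher, against 12.2% of all tested genes in either direction. edgeR called 1 member higher and 0 lower, with or without a count filter. With the filter it called 138 genes higher and 126 lower over all genes. For a list of 10 members, 0 lower is thus near the background. Without the fold threshold the same 2 members passed, against 3.72% of all genes. The median log2 fold change was 0.16 over the members and 0.0069 over all tested genes. Above 0 were 9 members, against 8281 of the 16250 tested genes. Of these members, Per2, Per3, Ciart, Tef and Clock fell below 0 in at least 1 fit that left out 1 animal.

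Dbp, which encodes the D-box binding activator, stood at 2493, 3600.1 and 2399 normalised counts in Control animals 1, 2 and 3, against 4167, 5370.3 and 6648 in STREP animals 1, 2 and 3. All 3 STREP animals lay above all 3 Control animals. Group means were 2831 ± 668 for Control and 5395 ± 1240.5 for STREP animals (SD over 3 animals each), and the log2 fold change was 0.93 ± 0.21 (SE, 95% interval 0.51 to 1.35, DESeq2 adjusted p = 0.000861, exact two-sided permutation p = 0.1, the smallest that 3 against 3 animals allow). The call was kept in all 6 fits that left out 1 animal, with log2 fold changes of 0.75 to 1.14. It was lost when the females were left out (0.65, DESeq2 adjusted p = 0.0822).

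Nr1d2, the gene of REV-ERB beta, stood at 3423, 5142 and 2786 normalised counts in Control animals 1, 2 and 3, against 5584, 6278 and 8123 in STREP animals 1, 2 and 3. The groups again did not overlap, and the order of the animals within each group was that of Dbp. Group means were 3784 ± 1219 and 6662 ± 1312 (SD, n = 3 each), giving a log2 fold change of 0.82 ± 0.23 (SE, 95% interval 0.37 to 1.26, DESeq2 adjusted p = 0.0133, exact two-sided permutation p = 0.1). This call was less firm than that of Dbp. It was lost with the edgeR quasi-likelihood test and a count filter (0.81, edgeR adjusted p = 0.117), whereas Dbp stayed just under the threshold there (edgeR adjusted p = 0.0459). It was also lost without Control animal 1 (0.74, DESeq2 adjusted p = 0.132), Control animal 3 (0.64, DESeq2 adjusted p = 0.161) or STREP animal 3 (0.65, DESeq2 adjusted p = 0.12). The 4 males gave 0.47 with DESeq2 adjusted p = 0.342.

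**Figure D1:**
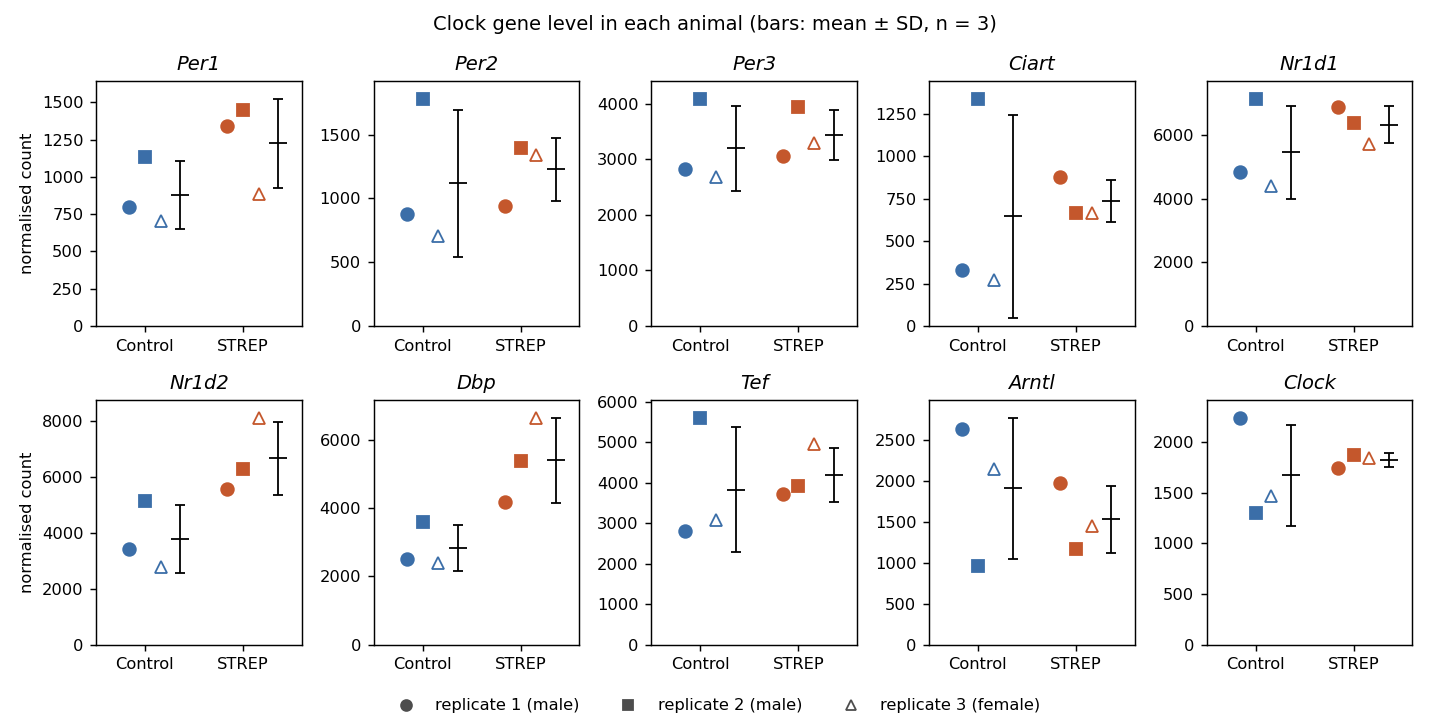
Normalised count (vertical axis, from 0) of each clock gene in each of 3 Control and 3 STREP animals, with 1 panel per gene, filled symbols for males, open triangles for females, and bars for the mean ± SD. STREP animals lie above all Control animals for Dbp and Nr1d2, and Control animal 2 (squares) is the highest Control animal in 8 panels.

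Dbp and Nr1d2 also had similar profiles over the 6 animals. With each gene centred on its mean log2(normalised count + 1), the root mean square difference between the pair was 0.116 on the log2 scale, and for either gene the other was the nearest of 12130 genes that averaged 100 normalised counts or more. Ranked by Pearson correlation instead, Nr1d2 was at rank 4 for Dbp and Dbp at rank 6 for Nr1d2. By the root mean square difference, the next members for Nr1d2 were Tef, Per2 and Nr1d1, at ranks 351, 441 and 623, and for Dbp the next was Tef, at rank 715. This likeness is a description over 6 libraries and carries no test, since the pair stands out by its change between the same groups.

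The paralogue and the family partner of these genes did not pass the test. Nr1d1, the gene of REV-ERB alpha, stood at 4843, 7134 and 4405 normalised counts in Control animals 1, 2 and 3, against 6882, 6374 and 5732 in STREP animals 1, 2 and 3, and the groups overlapped through Control animal 2 (log2 fold change 0.21 ± 0.19, SE, 95% interval -0.16 to 0.59, DESeq2 adjusted p = 0.788). Among STREP animals its order was the reverse of that of Nr1d2, with the female lowest rather than highest. Nr1d1 overlaps Thra on the opposite strand, and the library method does not mark strand, so reads from the shared stretch cannot be told apart. Tef, the PAR bZIP partner of Dbp, stood at 2798, 5604 and 3067 normalised counts in Control animals 1, 2 and 3, against 3712, 3915 and 4949.9 in STREP animals 1, 2 and 3. Control animal 2 held the highest value of all 6, and the group means of 3823 ± 1548 and 4192 ± 664 differed by less than the spread between animals (log2 fold change 0.13 ± 0.25, SE, 95% interval -0.35 to 0.62, DESeq2 adjusted p = 0.939).

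Of the repressor genes, Per1, which encodes a PER protein and is also driven by light and glucocorticoid signals, came nearest to the threshold. It stood at 796, 1136 and 708 normalised counts in Control animals 1, 2 and 3, against 1339, 1448 and 889 in STREP animals 1, 2 and 3, and the female STREP animal lay below Control animal 2. Its interval just reached 0 (log2 fold change 0.48 ± 0.25, SE, 95% interval -0.002 to 0.96, DESeq2 adjusted p = 0.416). Per2 stood at 875, 1778 and 703 normalised counts in Control animals 1, 2 and 3, against 944, 1398 and 1342 in STREP animals 1, 2 and 3. The values of the Control animals enclosed those of all STREP animals (log2 fold change 0.14 ± 0.31, SE, 95% interval -0.47 to 0.74, DESeq2 adjusted p = 0.959). Per3 stood at 2835, 4085 and 2685 normalised counts in Control animals 1, 2 and 3, against 3066, 3944 and 3304 in STREP animals 1, 2 and 3 and was enclosed in the same way (log2 fold change 0.10 ± 0.19, SE, 95% interval -0.28 to 0.48, DESeq2 adjusted p = 0.94).

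Ciart, which encodes the repressor CHRONO and whose promoter window holds the 3 E-boxes shown above, had the widest range. It stood at 333, 1338 and 269 normalised counts in Control animals 1, 2 and 3, against 879, 668 and 664 in STREP animals 1, 2 and 3. Control animal 2 was 4.97-fold above Control animal 3, whereas the STREP animals lay within a 1.32-fold range between these extremes. The group means were 647 ± 599.6 and 737 ± 123, and the interval of the change was wide (log2 fold change 0.19 ± 0.73, SE, 95% interval -1.24 to 1.62, DESeq2 adjusted p = 0.978).

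In the positive arm, Arntl stood at 2633, 958 and 2147 normalised counts in Control animals 1, 2 and 3, against 1978, 1165 and 1456 in STREP animals 1, 2 and 3. Control animal 2, the Control animal with the most Ciart, had the least Arntl of all 6 animals, and the STREP values again lay within the Control range (log2 fold change -0.32 ± 0.31, SE, 95% interval -0.93 to 0.29, DESeq2 adjusted p = 0.817). Clock stood at 2241, 1301 and 1469.8 normalised counts in Control animals 1, 2 and 3, against 1747, 1874 and 1846 in STREP animals 1, 2 and 3. The STREP animals were almost equal, with the highest 1.07-fold above the lowest, against 1.72-fold in Control animals (log2 fold change 0.12 ± 0.21, SE, 95% interval -0.29 to 0.54, DESeq2 adjusted p = 0.927). Npas2, the paralogue of Clock, stood at 810.1, 289 and 502 normalised counts in Control animals 1, 2 and 3, against 636, 438 and 392 in STREP animals 1, 2 and 3 and followed the order of Arntl in Control animals (log2 fold change -0.13 ± 0.35, DESeq2 adjusted p = 0.969).

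The clock genes also differed together within the Control group. The members that the positive arm drives, called driven genes below, were the Per genes, Ciart, Nr1d1, Nr1d2, Dbp and Tef, without Cry1 and Cry2. Control animal 2 held the highest Control value for 8 of these 8 members, and the lowest for Arntl and Clock. Among all 6466 genes with a mean normalised count in the range of the members, it held the highest Control value for 33.9% and the lowest for 33.6%. The female, Control animal 3, held the lowest Control value for 7 of the 8 driven genes, against 33.3% of all genes in that range. Since the members belong to 1 loop, they are not independent counts of this difference.

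The mean centred log2 level of the driven genes minus that of Arntl and Clock was used to place each animal. It was -0.995 in Control animal 1 and -0.70 in Control animal 3, but 0.97 in Control animal 2. In STREP animals 1, 2 and 3 it was -0.018, 0.46 and 0.29. All STREP animals thus lay between Control animal 2 on one side and the other Control animals on the other. In Control animals 1 and 3 the centred level of every driven gene was below those of Arntl, Clock and Npas2, in Control animal 2 it was above them, and in STREP animals the levels of the arms overlapped. The STREP mean was 0.48 above the Control mean, and this value was 1.09 without Control animal 2, 0.11 without Control animal 1 and 0.26 without Control animal 3.

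**Figure D2:**
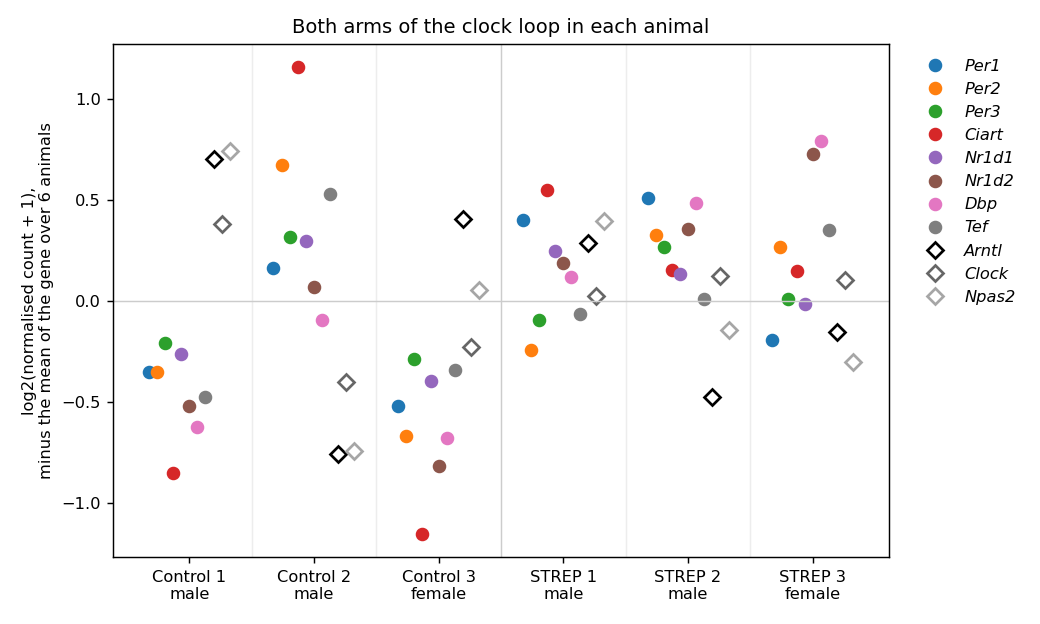
Log2(normalised count + 1) of each gene minus its mean over the 6 animals (vertical axis) in each animal (horizontal axis), with filled circles for the 8 members driven by the positive arm and open diamonds for Arntl, Clock and Npas2. All circles lie below all diamonds in Control animals 1 and 3 and above all diamonds in Control animal 2, whereas both kinds mix in the STREP animals.

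The spread between animals was wide for most clock genes, and much of it in the Control group came with animal 2. Without that animal, the median over members of the log2 SD pooled within groups fell from 0.37 to 0.25. Among Control animals, 4 members (Ciart, Arntl, Per2 and Tef) had a highest value over 2 times the lowest, against 1.52% of all genes in the range, and among STREP animals 0 members did, against 1.82%. The median SD on the log2 scale was 0.43 over the members and 0.15 over all genes in the range in Control animals, and 0.25 and 0.16 in STREP animals. All 10 members exceeded the median of the range in Control animals and 8 did so in STREP animals, Nr1d1 and Clock being the exceptions. For 8 members the Control SD was the larger, and for Per1 and Dbp the STREP SD was. Whether the groups differ in spread was not tested.

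**Figure D3:**
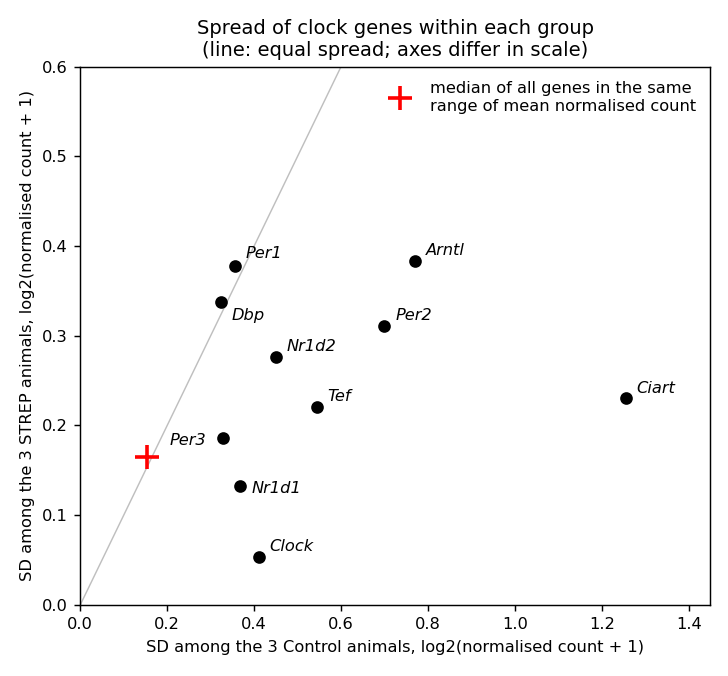
SD of log2(normalised count + 1) among the 3 STREP animals (vertical axis) against that among the 3 Control animals (horizontal axis) for each clock gene, with a cross at the median of all genes in the same range of mean normalised count and a line for equal spread. All members lie to the right of the cross, from 0.32 to 1.25 in Control animals, and Ciart lies farthest to the right.

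With Control animal 2 left out, every driven gene separated the groups. All 8 of them were then higher in every STREP than in every remaining Control animal, and Arntl was lower, whereas 13.3% of all tested genes were separated upwards and 13.5% downwards. With all animals, 2 members (Dbp and Nr1d2) were separated upwards and 0 downwards, against 9.12% and 8.63% of all genes (17.8% in either direction). Without Control animal 1, Clock joined Dbp and Nr1d2 (3 members, against 14 and 13.1% of all genes upwards and downwards), and without STREP animal 3, Per1 did (3 members, against 14.7 and 14.3%). Without Control animal 3, STREP animal 1 or STREP animal 2, Dbp and Nr1d2 alone were separated, against 13.2 and 13.3%, 13 and 13.4%, and 14.7 and 14.2% of all genes. These omissions for the overlap were chosen with the data in view. Control animal 2 was already the highest Control animal for the 8 driven genes and the lowest for Arntl. Leaving it out could therefore only move these genes towards separation. The shares of all genes carry no such choice, so they are not a like comparison for that omission.

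The fold changes moved accordingly. Without Control animal 2, Ciart was called higher (1.29, DESeq2 adjusted p = 4.1e-05), as were Nr1d2 (1.10, DESeq2 adjusted p = 2e-05) and Dbp (1.14, DESeq2 adjusted p = 2.31e-05). The log2 fold changes of Per1, Per2, Tef, Nr1d1 and Per3 were then 0.70, 0.64, 0.51, 0.45 and 0.32, and that of Arntl was -0.64, and none of these was called. Because Control animal 2 was the highest Control animal for every driven gene, its omission raises their fold changes by construction. The adjusted p-values without it therefore add no support to those of the main fit. Without Control animal 3 instead, Ciart was at -0.18, Per2 at -0.11, Tef at -0.0027 and Per3 at -0.0085. The sign of these 4 members thus changed with the animals included, and the values of Tef and Per3 in that fit were near 0. Leaving out Control animal 1 also put Ciart (-0.13), Tef (-0.053) and Per2 (-0.019) below 0. Per3 was also below 0 without STREP animal 2, and Tef without STREP animal 3. Clock was at -0.028 without Control animal 2. Dbp and Nr1d2 were higher in STREP animals in every fit, and without Control animal 2 both changes were at their largest among the 6 omissions.

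**Figure D4:**
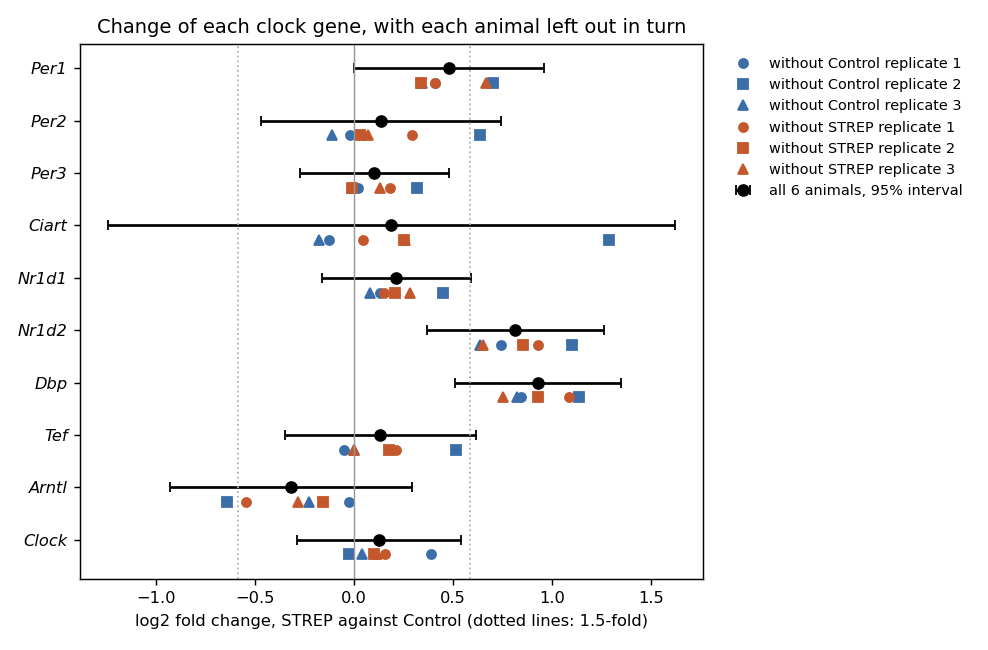
Log2 fold change of each clock gene in STREP against Control animals (horizontal axis), with black points and bars for all 6 animals and the 95% interval, coloured symbols for fits without 1 animal, and dotted lines at 1.5-fold. Dbp and Nr1d2 stay right of 0 in every fit, and Ciart moves from -0.18 without Control animal 3 to 1.29 without Control animal 2.

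Sex was read beside the group difference, with a single pair of females. The log2 difference of STREP and Control animals was 1.47 in females and 0.66 in males for Dbp, and 1.54 and 0.50 for Nr1d2. An interaction of sex and group passed the threshold for neither (DESeq2 adjusted p = 0.794 and 0.28), nor for any other member, against 0.259% of all 13134 genes tested. At an unadjusted p under 0.05, 3 members passed (Nr1d2, Dbp and Per2), against 5.54% of all genes, and the interaction tested with edgeR passed its adjusted threshold for 0 members. One of the Control males is animal 2, and each group holds 1 female, so sex cannot be told apart from the individual animals.

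Among the 22 other clock genes listed, 0 were called by DESeq2 or by edgeR, 2 had an unadjusted p under 0.05 (12.2% of all genes did), and 3 were higher in all STREP than in all Control animals (9.12% of all genes were), so both counts were near the background. The median log2 fold change was 0.12, and 17 genes were above 0, against 8281 of all 16250 tested genes. Cry1, the partner of the PER proteins in repression, met the threshold on the adjusted p-value but changed less than 1.5-fold. It stood at 719, 721 and 781 normalised counts in Control animals 1, 2 and 3, against 1034, 1043 and 1164 in STREP animals 1, 2 and 3, with no overlap between groups and little spread within them (log2 fold change 0.55 ± 0.16, SE, DESeq2 adjusted p = 0.0207). Control animal 2 did not stand apart from the other Control animals for Cry1. Its edgeR adjusted p was 0.0941 with a count filter. The DESeq2 adjusted p was 0.109 without Control animal 1, 0.11 without Control animal 2, 0.0582 without STREP animal 1 and 0.0862 without STREP animal 3, and it was 0.117 with thinned libraries and 0.356 with library totals as size factors. It stayed under 0.05 without STREP animal 2 (DESeq2 adjusted p = 0.0443) and without Control animal 3, where Cry1 was called (0.59, DESeq2 adjusted p = 0.0391). Cry2 stood at 4746, 6212 and 3763 normalised counts in Control animals 1, 2 and 3, against 5794, 5139 and 6426 in STREP animals 1, 2 and 3, with the highest Control value in animal 2 (log2 fold change 0.24 ± 0.19, DESeq2 adjusted p = 0.736). Nfil3, whose product competes with DBP and TEF for D-boxes, was low, at 61.4, 45.1 and 55 normalised counts in Control animals 1, 2 and 3, against 159.8, 92.9 and 59.8 in STREP animals 1, 2 and 3 (log2 fold change 0.95 ± 0.49, SE, 95% interval -0.0013 to 1.90, DESeq2 adjusted p = 0.411).

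Per1 and other clock genes can also respond to glucocorticoids, so a list of 12 glucocorticoid-responsive genes was read beside the members. Of these, 2 were called higher and 0 lower, against 1.87% and 1.37% of all tested genes. The median log2 fold change over the list was 0.29, with 8 genes above 0 and 4 below, against 8281 of all 16250 tested genes above 0. Fkbp5 stood at 76.7, 20.4 and 171 normalised counts in Control animals 1, 2 and 3, against 762, 509.6 and 414 in STREP animals 1, 2 and 3 (log2 fold change 2.65 ± 0.81, DESeq2 adjusted p = 0.0332) and Klf9 at 1633, 1148 and 1864 normalised counts in Control animals 1, 2 and 3, against 3125, 2328 and 2154 in STREP animals 1, 2 and 3 (log2 fold change 0.71 ± 0.22, DESeq2 adjusted p = 0.033). Control animal 2, the highest Control animal for Per1, was the lowest for both. With edgeR and a count filter the Klf9 call was lost (edgeR adjusted p = 0.136) and that of Fkbp5 was kept (edgeR adjusted p = 0.0494). With library totals as size factors Fkbp5 was not called (DESeq2 adjusted p = 0.0637). Both calls depended on single animals, but the direction of change did not. In the fits without 1 animal, log2 fold changes ran from 2.18 to 3.52 for Fkbp5 and from 0.53 to 0.87 for Klf9. Fkbp5 was not called without Control animal 1, STREP animal 2 or STREP animal 3 (DESeq2 adjusted p = 0.206, 0.137 and 0.0986), nor was Klf9 without Control animal 1, Control animal 2, STREP animal 1 or STREP animal 2 (DESeq2 adjusted p = 0.105, 0.231, 0.302 and 0.0598). The part of these genes in the changes of Dbp and Nr1d2 was not tested.

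Markers of other cell types also varied between animals. STREP animal 3, the animal with the most Dbp and Nr1d2, had the highest summed level of 8 supporting cell genes, 1049940 normalised counts against 526986 to 682487 in the other animals. The sum of 4 melanocyte genes was also highest there (38349 against 25276 to 29546), but Pmel made up nearly all of it (38126 normalised counts), and Tyr (62.8) and Mlana (117) were at their lowest in that animal, with a median log2 fold change of -1.01 over the list. Control animal 2 had the highest sum of 6 Schwann cell genes, 305394 against 122024 to 256520 in the others. Summed dark cell genes (4) were lower in STREP animals, at 31037 to 37800.4 against 45055 to 50341. The sums overlapped for 6 neuron genes (4137 to 4648 in Control and 4022 to 4313 in STREP animals), 6 macrophage genes (2866 to 4103 and 3807 to 4610.2) and 2 erythrocyte genes (1849.9 to 6396 and 2916 to 4043), and no listed marker was at 0 in all libraries. Of these lists, Cd163 (macrophage), Tubb3 (neuron) and Sox10 (Schwann cell) were called higher and Prx (Schwann cell) and Cib2 (HC) lower, 5 of 45 markers (11.1%) against 3.24% of all tested genes. Myo7a, a HC myosin, and Slc12a2, the dark cell ion cotransporter, met the threshold on the adjusted p-value with less than a 1.5-fold change (log2 fold changes of -0.49 and -0.55, DESeq2 adjusted p = 0.0162 and 0.0035), and both were lower in all STREP than in all Control animals. The part of cell composition in the levels of the clock genes was not tested.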

How the data were processed

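Low-input RNA sequencing (SMARTseq2) was performed on 6 libraries. According to the submitters' processing notes, reads were aligned with STAR 2.5.3a and quantified per gene with RSEM 1.3.0, on the rat genome Rnor6.0. The authors deposited 1 table of expected counts, unscaled between libraries, with 0 fractional values, and rounding for the count models therefore left it as it was. Expected counts share reads among similar genes. Groups came from the sample labels, and replicates were numbered in order of deposition and pair no animals.

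Counts of all genes were fitted with DESeq2 1.42.0 in R 4.3.3, with its default size factors, no covariate and Benjamini-Hochberg adjustment over the 16250 genes left by its independent filtering. Intervals are Wald intervals. edgeR 4.0.16 was run as an alternative, with other scalings, filters and thresholds, sex as a covariate, males alone, libraries thinned to the smallest total, and each animal left out. Centred values used a pseudocount of 1. The procedure was tested on simulated counts, where DESeq2 recovered more of the changed genes than edgeR but a larger share of its calls was false, above the nominal level for both.

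Named genes were the members, listed genes with an adjusted p-value under 0.05, a few core clock genes, and the 5 genes most like Dbp and Nr1d2. Members and lists were chosen with earlier results of these data known. Nr3c1, Ocm, Dct and Hba1 matched no symbol.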

Additional observations from a re-analysis of the deposited data

How the results depend on the processing

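Over all genes, 527 were called, but 264 with edgeR and a count filter, 295 with edgeR and no filter, 309 with library totals as size factors and 82 with the fold threshold inside the Wald test. Of the members, 1 was called with edgeR, with or without a filter, where Nr1d2 was not (0.81 and 0.81). With males alone 0 were called (Dbp 0.65, Nr1d2 0.47), and Per2 (-0.18), Ciart (-0.11) and Tef (-0.14) changed sign, none of them called in any fit but that of Ciart without Control animal 2. The fold threshold inside the test also left 0 members (Dbp 0.93, Nr1d2 0.82). Glucocorticoid-responsive genes called were 1 with edgeR, with or without a filter, and 0 with library totals or the threshold inside the test, and 1 other clock gene, Cry1, was called with no fold threshold. Of 100 values of members under other settings, 91 kept direction and call, but most of them belonged to members not called in the main fit. The call of Dbp was kept in 8 of 10 such settings and that of Nr1d2 in 6 of 10. The cause of these differences was not tested.

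With 1 animal left out, 1 to 3 members, 0 to 1 other clock genes and 0 to 2 glucocorticoid-responsive genes were called, and 2 to 9 members did not overlap between groups. Log2 fold changes ran from -0.11 to 0.64 for Per2, -0.0099 to 0.32 for Per3, -0.18 to 1.29 for Ciart, -0.053 to 0.51 for Tef, -0.028 to 0.39 for Clock, 0.64 to 1.10 for Nr1d2, 0.75 to 1.14 for Dbp, 0.34 to 0.70 for Per1, 0.08 to 0.45 for Nr1d1 and -0.64 to -0.024 for Arntl. Of 60 such values, 46 kept direction and call, 3 lost a call (all of Nr1d2), 1 gained one and 10 changed sign. No paired analysis was possible because the labels give no replicate number shared by the groups.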

Other observations

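Outside the clock list, the genes whose profile over the 6 animals was most like that of Dbp, given with the root mean square difference on the centred log2 scale, were Mgp (0.129, log2 fold change 0.90), Cd274 (0.145, log2 fold change 0.89), AC132752.1 (0.154, log2 fold change 0.71), Rpl9 (0.205, log2 fold change 0.85) and Prkar2a (0.206, log2 fold change 0.71). For Nr1d2 they were AC132752.1 (0.179, log2 fold change 0.71), Necab1 (0.183, log2 fold change 0.61), Cd274 (0.186, log2 fold change 0.89), Eif5a2 (0.188, log2 fold change 0.64) and Vdr (0.191, log2 fold change 0.78). Mgp encodes matrix Gla protein, Cd274 the immune checkpoint ligand PD-L1, and Vdr the vitamin D receptor. Counts of Rpl9, which has near-identical pseudogene copies, are uncertain. The profiles of Dbp and Nr1d2 share Cd274 and AC132752.1. Ranked by Pearson correlation instead, 0 of the 5 genes for Dbp and 1 of the 5 for Nr1d2 (Necab1) remained, so over 6 libraries these lists depend on the measure of likeness.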
